A study of Mus musculus with 4 samples.

Results

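The 44 genes described here encode the proteins of homologous recombination and of the Fanconi anemia pathway of DNA crosslink repair. They were chosen by name as members of these pathways, with earlier results of these data known. The names were looked up in the deposited expression tables of mouse hematopoietic stem cells, which list 24411 genes. All 44 were present, and all 44 passed the filter on low counts that left 12244 genes for testing. The study compared 2 genotypes on the C57BL/6 strain, wild type (Dis3fl/fl, no Cre) and Dis3-/- (Dis3fl/fl;Mx-Cre), with 2 libraries of 100 sorted cells each. Dis3 is a nuclease of the RNA exosome, the complex that trims and degrades RNA from its 3′ end. In either group, lethally irradiated CD45.1 hosts had received a graft of whole bone marrow, and 4 weeks later they were given pIpC, 300 µg at day 0 and again at day 2. The stem cells were sorted at day 4 as lineage-, EPCR+, CD150+ and CD48- cells (the L-ESLAM gate). That pIpC, a double-stranded RNA mimic that induces interferon, was also given to wild-type hosts is read from a protocol text shared by both groups. Wild-type cells carried no Cre, so the presence of Cre and the loss of Dis3 cannot be told apart here, and the Mx promoter responds to interferon in many cell types rather than in stem cells alone.

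Homologous recombination repairs a broken chromosome by copying from the sister chromatid. The end is first cut back to single-stranded DNA, the free strand then invades the sister with the help of BRCA2 and PALB2, and the joined molecules are finally dissolved by helicases or cut by nucleases. The Fanconi pathway acts where replication forks meet a crosslink between the strands: a core complex attaches ubiquitin to the FANCD2-FANCI pair, nucleases unhook the crosslink, and recombination completes the repair. Inherited loss of Fanconi genes causes bone marrow failure, and blood stem cells are known to depend on the pathway. Transcripts of many of these genes are also known to rise when cells replicate their DNA.

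Many of the 44 genes start head to head with a neighbour on the other strand. The stretches between the annotated starts are shown for Brca1, Gen1, Rad54l and Brip1, because the repair gene and its neighbour can be compared there across a short piece of DNA. These members all rose. Such stretches of Eme1, which rose, and of Fancb, Helq, Mre11a and Palb2, which did not pass the test, are not shown. The 150 bases before the start of Ankle1, for which no tested neighbour starts within 1 kb on the other strand, are shown because Ankle1 changed most. All are RefSeq sequences on GRCm38.p6, 5′ to 3′ on the strand of the repair gene, in lower case with CCAAT (or its reverse complement ATTGG) and TTTGAA in capitals. They run from the neighbour's start, or from the 150th base upstream, up to the last base before the RefSeq start of the repair gene.
Brca1 to Nbr1, chr11:101551956-101552148, minus strand: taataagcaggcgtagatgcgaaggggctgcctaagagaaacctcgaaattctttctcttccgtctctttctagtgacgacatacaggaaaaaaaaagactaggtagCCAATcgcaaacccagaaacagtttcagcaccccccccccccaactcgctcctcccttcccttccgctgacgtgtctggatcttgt
Gen1 to Smc6, chr12:11265808-11265885, minus strand: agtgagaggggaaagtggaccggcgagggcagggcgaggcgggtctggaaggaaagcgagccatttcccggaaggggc
Rad54l to Pomgnt1, chr4:116123690-116123839, minus strand: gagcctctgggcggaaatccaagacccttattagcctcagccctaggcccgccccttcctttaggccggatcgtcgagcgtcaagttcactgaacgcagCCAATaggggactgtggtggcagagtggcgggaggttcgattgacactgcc
Brip1 to Brip1os, chr11:86201194-86201369, minus strand: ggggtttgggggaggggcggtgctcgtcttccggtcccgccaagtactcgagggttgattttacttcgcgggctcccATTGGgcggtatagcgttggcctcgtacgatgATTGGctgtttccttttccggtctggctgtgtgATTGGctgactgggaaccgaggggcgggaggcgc
Ankle1 upstream, chr8:71405862-71406011, plus strand: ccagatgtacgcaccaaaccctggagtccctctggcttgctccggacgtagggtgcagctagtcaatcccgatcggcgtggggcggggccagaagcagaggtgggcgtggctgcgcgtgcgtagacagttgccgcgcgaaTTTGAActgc
The Brip1 stretch of 176 bases held 3 CCAAT matches, the 193 bases of Brca1 and the 150 bases of Rad54l held 1 each, and the 78 bases of Gen1 held none of the motifs searched. Upstream of Ankle1, TTTGAA began 10 bases before the start.

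Library totals ranged from 6085367 to 6818535 expected counts, with 14785 to 14874 genes above 0. Replicates correlated at 0.986 in either genotype and libraries of different genotype at 0.963 to 0.965 (Pearson, log2 CPM over tested genes, which are not independent replicates). The design text gives 2 mice and no label says more of how replicates were separated, so p-values measure only the spread between these samples. Dis3 itself had 388 and 335 counts in wild-type libraries against 140 and 193 in Dis3-/- ones, a log2 fold change of -1.02 ± 0.14 (SE; edgeR quasi-likelihood test, adjusted p = 2.58e-04). The sources used here do not name the floxed part of the gene, and these reads need not come from a functional transcript. Of 10 stem cell markers, the sort genes Procr (EPCR) and Slamf1 (CD150) were among 4 not called, while 5 fell, among them Hlf, Fgd5, Kit and Cd34, and Ly6a rose. Ms4a1 (B cells), Cd3e, Cd3g and Ncr1 (T and NK cells) and Hbb-bs (red cells) were at 0 counts in every library. Other genes of the same lists were not: the B cell gene Cd79b had 100 and 101 counts in the wild type and 66 and 79 in Dis3-/- samples, Cd79a 0 and 0 against 3 and 8, and the cytotoxic granule gene Nkg7 420 and 535 against 485 and 410. Summed levels were 14.8 and 16.2 CPM in the wild type and 12.3 and 13.9 CPM in Dis3-/- samples for 5 B cell markers, and 60.7 and 84.8 against 81.5 and 64.5 CPM for 5 T and NK cell markers; only 1 gene of each list was tested, and neither passed. Of the markers of myeloid, erythroid and megakaryocytic, and endothelial and stromal cells, 2 of 6, 5 of 8 and 2 of 6 had enough counts to be tested; Itgam, Gata1 and Pdgfrb fell, 1 in each list, and no other tested marker passed. Their summed levels were 30.1 to 38.2 CPM in wild-type and 15.6 to 16.9 CPM in Dis3-/- libraries for 6 granulocyte and monocyte markers, 79.3 to 91.0 and 41.2 to 71.9 CPM for 8 erythroid and megakaryocyte markers, and 27.3 to 37.4 and 8.57 to 11.6 CPM for 6 endothelial and stromal markers. Their part in the results below was not tested. In libraries made from cell pools, a change in the share of cells that express a gene and a change in RNA per cell cannot be told apart.

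Transcripts of recombination and Fanconi genes stood higher in Dis3-/- stem cells, with the largest estimates in the nuclease genes Ankle1 and Gen1, in Fancd2 and in Eme1. Of the 44 members, 23 rose (52.3%), none fell and 21 did not pass the test (edgeR quasi-likelihood test, adjusted p under 0.05, adjusted over all 12244 genes). Of all genes tested, 23.0% were called, 12.7% higher and 10.2% lower. The members and the gene lists below were chosen with earlier results of these data known, so such shares are set side by side as a description. The counts by role below stand beside the same shares of all tested genes. With all 4 libraries, no member was lower even at an unadjusted p under 0.05, neither in edgeR nor in DESeq2 or limma-voom. At that level 25 were higher in edgeR. The median log2 fold change of the 44 was 0.50, against -0.0027 over all tested genes. Of the members 37 lay above 0, and of all 12244 tested genes 6080 did. In 33 members both Dis3-/- libraries stood above both wild-type libraries, and in 5 below, where 31.9% and 30.5% of all tested genes did so. Ankle1, Gen1, Fancd2, Eme1, Brip1, Rad54b and Brca1 were the 7 members called with a log2 fold change of 1 or more. Of all 12244 tested genes, 333 were called higher at that size.

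**Figure D1:**
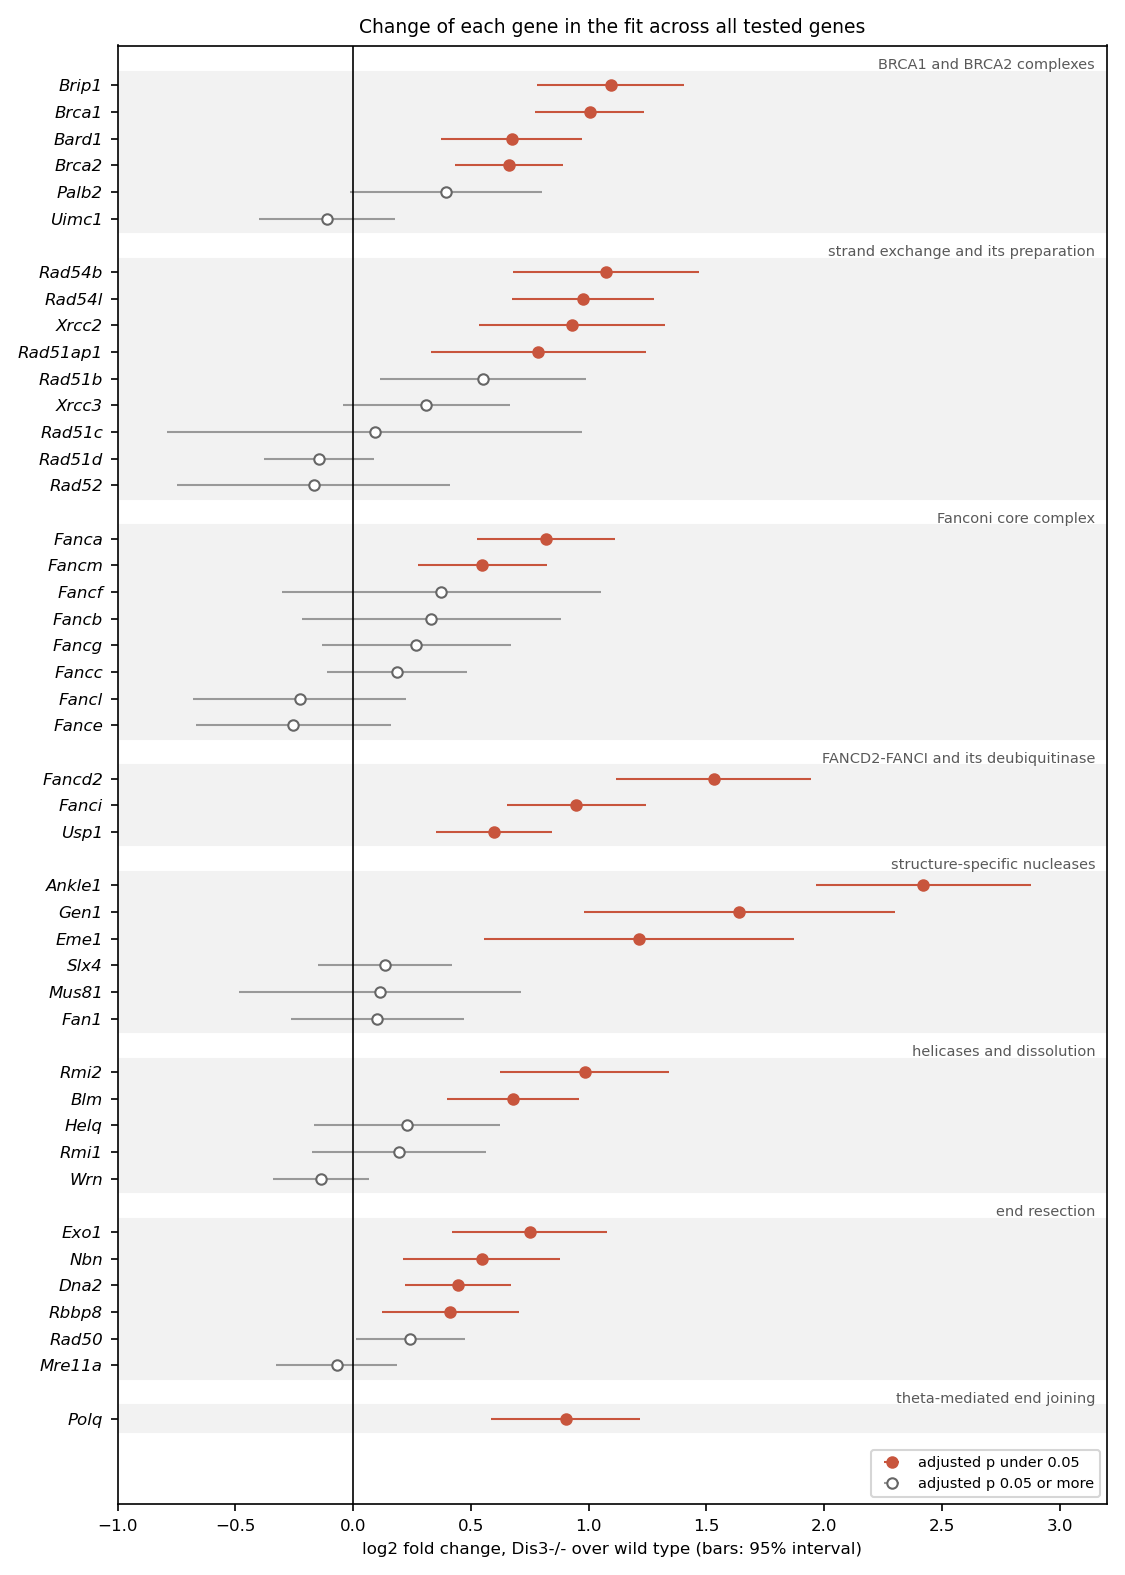
log2 fold change (Dis3-/- over wild type, horizontal axis) of each of the 44 genes, grouped by role, with bars for the 95% interval of the fit across all tested genes; filled points passed the test at an adjusted p under 0.05. All 23 filled points lie to the right of 0, from Rbbp8 at 0.41 to Ankle1 at 2.42.

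Among the genes of the BRCA1 and BRCA2 complexes, 4 of 6 rose, with a median log2 fold change of 0.67. Brca1 (chromosome 11, 101488764 to 101551955, minus strand, mm10), the ubiquitin ligase that directs broken ends towards recombination, had 415 and 323 counts in the wild type and 634 and 744 in Dis3-/- samples. Both Dis3-/- libraries lay far above both wild-type ones: 55.5 ± 6.00 CPM (counts scaled to a common library size; SD, n = 2) became 111 ± 6.78 CPM. This is a fold of 2.01 (95% interval 1.71 to 2.35) and a log2 fold change of 1.0 ± 0.11 (SE; edgeR adjusted p = 3.39e-05). Brip1 (FANCJ), a helicase that binds BRCA1, had 168 and 134 counts in wild-type libraries against 269 and 332 in Dis3-/- ones. Its groups did not overlap, and the log2 fold change was 1.09 ± 0.15 (edgeR adjusted p = 1.60e-04). Bard1, the obligate partner of BRCA1 in the ligase, stood at 26.2 and 31.1 CPM in the wild type and 45.5 and 45.6 CPM in Dis3-/- samples, with a log2 fold change of 0.67 ± 0.14 (edgeR adjusted p = 0.00354). Brca2, which prepares single-stranded DNA for strand invasion, had 556 and 458 counts in wild-type libraries against 787 and 702 in Dis3-/- ones, again without overlap. Its level went from 76.3 ± 5.21 to 121 ± 16.04 CPM, a log2 fold change of 0.66 ± 0.11 (edgeR adjusted p = 7.01e-04). Palb2, which links BRCA1 to BRCA2, stood at 16.5 and 15.5 CPM in the wild type and 18.8 and 23.3 CPM in Dis3-/- samples. It did not pass the test at a log2 fold change of 0.39 ± 0.19 (edgeR adjusted p = 0.155), and its 95% interval from -0.02 to 0.80 includes changes as large as those of Bard1 and Brca2. Uimc1 (RAP80), which recruits BRCA1 to ubiquitin chains at breaks and restrains end resection, stood at 40.3 and 40.4 CPM in wild-type libraries against 40.0 and 34.8 CPM in Dis3-/- ones. At -0.11 ± 0.13 on the log2 scale (95% interval -0.40 to 0.18), it lay below the other genes of these complexes.

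Of 9 genes for strand exchange and its preparation, 4 rose, and the median log2 fold change was 0.55. Genes of motor proteins that drive strand exchange were among them. Rad54l had 189 and 164 counts in the wild type and 284 and 364 in Dis3-/- samples, a log2 fold change of 0.98 ± 0.14 (edgeR adjusted p = 2.83e-04). Its paralog Rad54b had 98 and 75 counts in wild-type libraries against 156 and 183 in Dis3-/- ones, a log2 fold change of 1.07 ± 0.18 (edgeR adjusted p = 0.00101). Neither gene's groups overlapped. Part of these counts could belong to neighbours. Rad54l shares 1184 exonic bases with Lrrc41 on the other strand, which matters where strand was not used in counting, and Rad54b shares 2068 with Fsbp on its own strand, which strand would not separate. Lrrc41 stood at 73.0 CPM in the wild type and 74.4 CPM in Dis3-/- samples, and Fsbp at 6.50 and 6.12 CPM. Rad51ap1, which helps to pair homologous DNA, had 77 and 61 counts in wild-type libraries against 100 and 122 in Dis3-/- ones. Its log2 fold change of 0.79 ± 0.21 passed the test (edgeR adjusted p = 0.0162), but not without wild-type replicate 2 (0.69; adjusted p was 0.0704), nor without Dis3-/- replicate 2 (0.70, adjusted p = 0.0935), nor in DESeq2 (adjusted p = 0.0910).

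The family of Rad51b, Rad51c, Rad51d, Xrcc2 and Xrcc3, whose proteins form helper complexes of strand exchange, differed within itself in the size of the estimate. Xrcc2 had 98 and 124 counts in the wild type and 184 and 212 in Dis3-/- samples. It rose by 0.93 ± 0.18 on the log2 scale (edgeR adjusted p = 0.00260), from 16.9 ± 3.93 to 32.0 ± 1.53 CPM. Rad51d, which binds Xrcc2 directly, stood at 64.2 and 66.9 CPM in wild-type libraries against 61.7 and 56.8 CPM in Dis3-/- ones, a log2 fold change of -0.15 ± 0.11 with a 95% interval from -0.38 to 0.09. On log2(TPM + 1) its estimate turned to 0.047, so no direction can be given. Rad51b stood at 15.4 and 16.5 CPM in the wild type and 19.2 and 27.5 CPM in Dis3-/- samples, with the Dis3-/- libraries far apart (0.55 ± 0.20; edgeR adjusted p = 0.0657). Without Dis3-/- replicate 1 it passed the test (0.79, adjusted p = 0.00568), as it did without the filter on low counts (0.55, adjusted p = 0.0283). Xrcc3, the partner of RAD51C, stood at 24.0 and 20.3 CPM in wild-type libraries against 28.7 and 26.4 CPM in Dis3-/- ones (0.31 ± 0.17; edgeR adjusted p = 0.196). Rad51c had the fewest counts over the 4 libraries, with 4.36 ± 1.69 CPM in the wild type and 4.62 ± 0.13 CPM in Dis3-/- samples, and its 95% interval ran from -0.79 to 0.97 on the log2 scale. Rad52, a mediator of strand annealing, stood at 14.0 and 13.3 CPM in wild-type libraries against 8.40 and 15.8 CPM in Dis3-/- ones, which lay on either side of the wild-type values.

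The Fanconi core complex and the pair it modifies gave different counts. Of the 8 core genes, 2 rose, and of the other 3 (the FANCD2-FANCI pair and its deubiquitinase) all 3 rose; whether the groups of genes differ was not tested. Fancd2 (chromosome 6, 113531682 to 113597017, plus strand, mm10), the central substrate of the pathway, had 82 and 121 counts in the wild type and 263 and 287 in Dis3-/- samples. The Dis3-/- libraries were close together at 44.5 ± 0.42 CPM and the wild-type ones further apart at 15.5 ± 5.22 CPM. Its fold was 2.89 (95% interval 2.17 to 3.85) and its log2 fold change 1.53 ± 0.19 (edgeR adjusted p = 1.04e-04). Fanci, the other protein of the clamp, had 191 and 174 counts in wild-type libraries against 342 and 313 in Dis3-/- ones, a log2 fold change of 0.95 ± 0.14 (edgeR adjusted p = 2.98e-04). Fanci shares 921 exonic bases with Polg on the other strand, which stood at 75.6 CPM in the wild type and 68.0 CPM in Dis3-/- samples. Usp1, the enzyme that removes ubiquitin from FANCD2, had 425 and 465 counts in wild-type libraries against 651 and 606 in Dis3-/- ones, a log2 fold change of 0.60 ± 0.11 (edgeR adjusted p = 0.00216). In none of the 3 genes did the genotypes overlap.

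Fanca, a scaffold of the core complex, had 343 and 229 counts in the wild type and 445 and 491 in Dis3-/- samples, and rose by 0.82 ± 0.14 on the log2 scale (edgeR adjusted p = 8.53e-04). It shares 920 exonic bases with Zfp276 on the other strand, a gene that stood at 24.7 CPM in wild-type libraries against 24.8 CPM in Dis3-/- ones. Fancm, the translocase that anchors the core complex to DNA, shares 575 exonic bases with Gm47870 on the other strand, a gene without counts here. Fancm had 303 and 296 counts in the wild type and 353 and 467 in Dis3-/- samples. It rose by 0.55 ± 0.13 on the log2 scale (edgeR adjusted p = 0.00707), and without Dis3-/- replicate 2 it was 0.39 and did not pass (adjusted p = 0.0670). Fancl, the ubiquitin ligase subunit itself, stood at 13.8 and 17.0 CPM in wild-type libraries against 13.4 and 12.8 CPM in Dis3-/- ones, a log2 fold change of -0.23 ± 0.21. Fance, which bridges the core to FANCD2, stood at 18.8 and 24.7 CPM in the wild type and 19.3 and 17.2 CPM in Dis3-/- samples, a log2 fold change of -0.25 ± 0.19. The other core genes, Fancb, Fancc, Fancf and Fancg, had estimates from 0.19 (Fancc) to 0.37 (Fancf), and none passed the test. For these 6 core genes the 95% intervals all include 0, the widest being that of Fancf from -0.30 to 1.05.

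**Figure D2:**
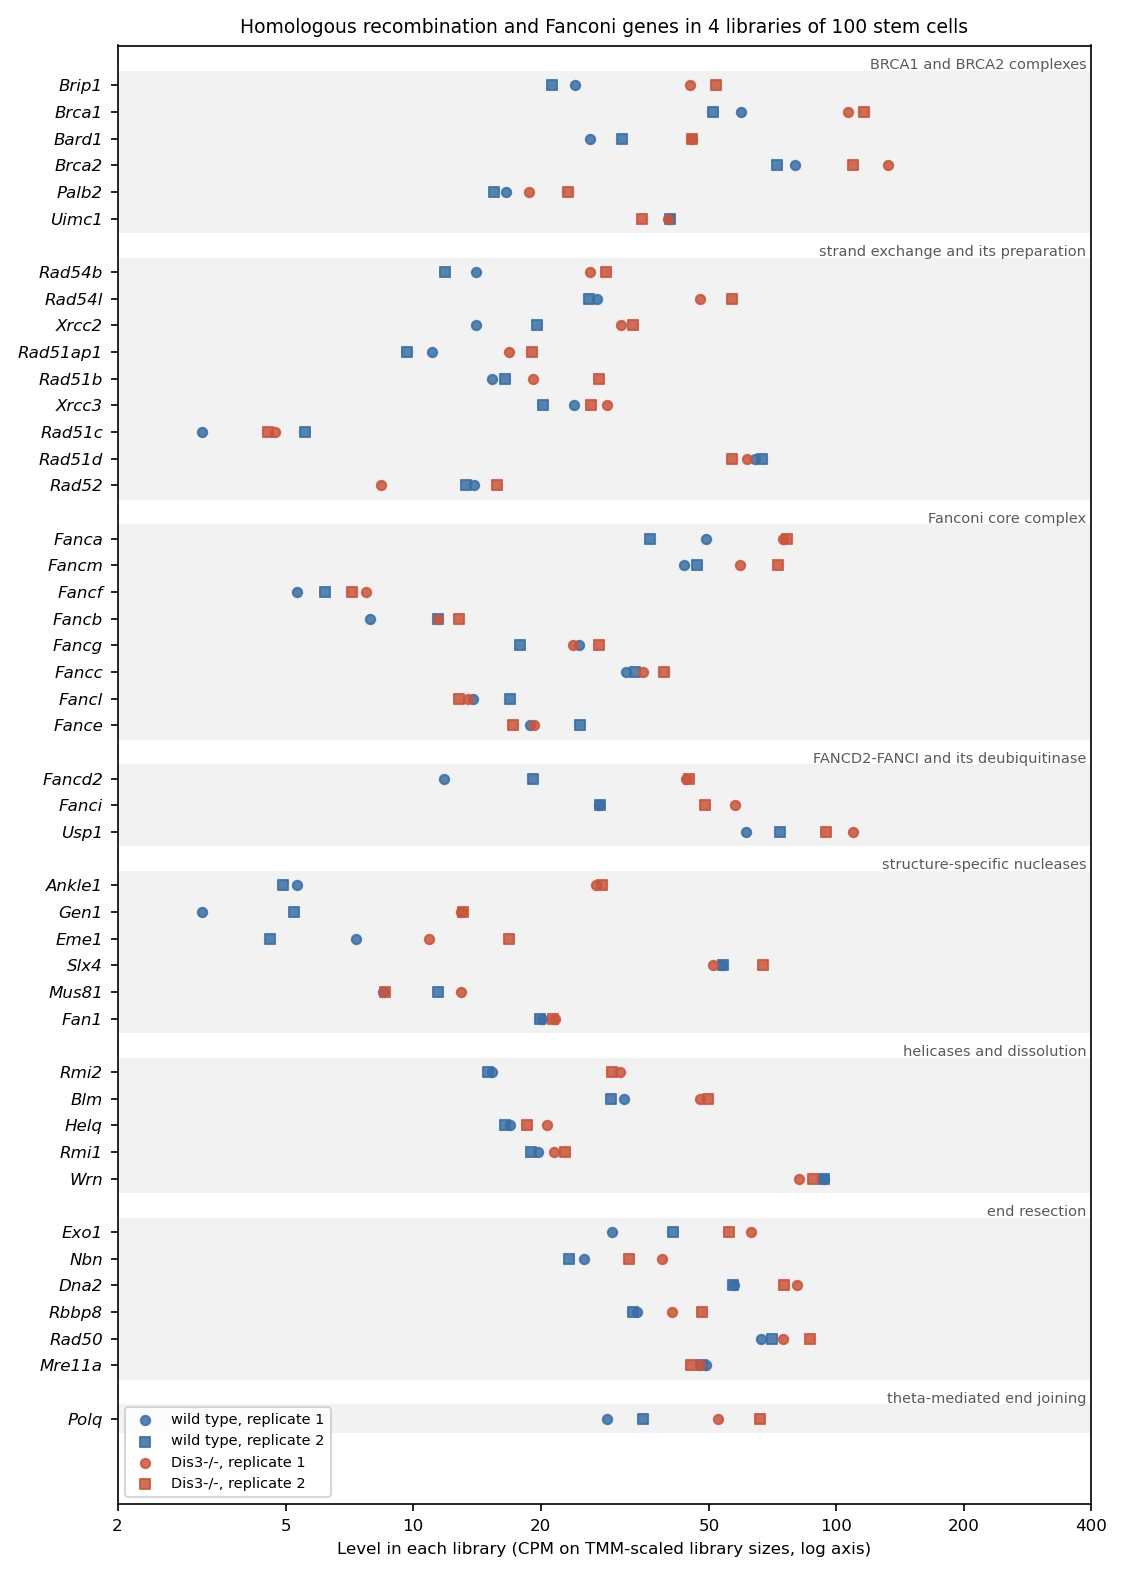
Level of each of the 44 genes in each of the 4 libraries (CPM on TMM-scaled library sizes, log axis), with wild type in blue, Dis3-/- in red, circles for replicate 1 and squares for replicate 2. Ankle1 shows the widest gap between genotypes, 5.32 and 4.91 CPM against 27.1 and 27.9 CPM, while the points of Rad51c, Rad52, Mus81, Slx4, Fance and Fancg overlap.

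Among the 6 structure-specific nuclease genes, 3 rose, and these were 3 of the 4 largest changes among all 44 members. Ankle1 (chromosome 8, 71406010 to 71409904, plus strand, mm10), a nuclease that cuts branched DNA and chromatin bridges late in cell division, had 37 and 31 counts in wild-type libraries against 161 and 179 in Dis3-/- ones. Replicates were close in both genotypes, at 5.12 ± 0.29 and 27.5 ± 0.62 CPM. The fold was 5.35 (95% interval 3.90 to 7.34) and the log2 fold change 2.42 ± 0.21 (edgeR adjusted p = 6.80e-06), which ranked 56th of 12244 tested genes by log2 fold change. Gen1 (chromosome 12, 11238920 to 11265801, minus strand, mm10), which resolves Holliday junctions, had 22 and 33 counts in the wild type and 77 and 84 in Dis3-/- samples, a log2 fold change of 1.64 ± 0.31 (edgeR adjusted p = 0.00188). Eme1, the partner that MUS81 needs for cutting, had 51 and 29 counts in wild-type libraries against 65 and 108 in Dis3-/- ones. Its replicates differed widely in both genotypes, and the log2 fold change of 1.21 ± 0.31 (edgeR adjusted p = 0.0117) did not pass without wild-type replicate 2 (0.92; adjusted p was 0.0546), nor without Dis3-/- replicate 2 (0.87, adjusted p = 0.134). Eme1 also shares 221 exonic bases with Lrrc59 on the other strand, which itself rose (0.47 ± 0.08; edgeR adjusted p = 0.00134) and stood at 173 CPM in wild-type libraries. Mus81 stood at 8.49 and 11.4 CPM in the wild type and 12.9 and 8.59 CPM in Dis3-/- samples, with no order between genotypes. Slx4, the scaffold that gathers nucleases, stood at 53.7 and 54.1 CPM in wild-type libraries against 51.3 and 67.0 CPM in Dis3-/- ones. Fan1, a nuclease recruited by FANCD2, stood at 20.14 and 19.98 CPM in the wild type and 21.7 and 21.4 CPM in Dis3-/- samples, with a 95% interval of the fold from 0.83 to 1.38.

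Helicases and the dissolution complex gave 2 of 5 genes higher. Blm, the helicase that unwinds joined molecules together with RMI1 and RMI2, had 219 and 185 counts in wild-type libraries against 283 and 319 in Dis3-/- ones, a log2 fold change of 0.68 ± 0.13 (edgeR adjusted p = 0.00222). Rmi2 had 107 and 95 counts in the wild type and 183 and 189 in Dis3-/- samples, a log2 fold change of 0.98 ± 0.17 (edgeR adjusted p = 9.80e-04). Both stood apart between genotypes with replicates close together. Rmi1 stood at 19.7 and 19.0 CPM in wild-type libraries against 21.5 and 22.8 CPM in Dis3-/- ones (0.19 ± 0.17; edgeR adjusted p = 0.456). Wrn, a RecQ helicase like BLM, stood at 93.5 CPM in both wild-type libraries and at 81.9 and 88.2 CPM in Dis3-/- libraries (-0.14 ± 0.09; edgeR adjusted p = 0.327). Wrn is thus one of 5 members, with Uimc1, Rad51d, Fancl and Mre11a, whose Dis3-/- libraries both lay below both wild-type libraries, none of which passed the test. Helq, a helicase with a part in crosslink repair, had an estimate of 0.23 ± 0.18.

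Of 6 end resection genes, 4 rose, and the median log2 fold change was 0.43. Exo1, the exonuclease of long-range resection, had 205 and 260 counts in the wild type and 374 and 357 in Dis3-/- samples, a log2 fold change of 0.75 ± 0.15 (edgeR adjusted p = 0.00314). Dna2, the nuclease of the parallel long-range route, stood at 57.4 and 57.1 CPM in wild-type libraries against 80.8 and 75.2 CPM in Dis3-/- ones (0.45 ± 0.10; edgeR adjusted p = 0.00771). Within the MRN complex, which senses ends and starts resection, the 3 subunits gave different values. Nbn had 176 and 147 counts in the wild type and 231 and 207 in Dis3-/- samples (0.55 ± 0.16; edgeR adjusted p = 0.0211). Rad50 stood at 66.3 and 70.4 CPM in wild-type libraries against 74.8 and 86.8 CPM in Dis3-/- ones (0.24 ± 0.11; edgeR adjusted p = 0.124), and Mre11a at 49.3 and 48.2 against 47.7 and 45.3 CPM (-0.07 ± 0.12; edgeR adjusted p = 0.722). Nbn did not pass without wild-type replicate 2 (0.49; adjusted p was 0.0834), nor without Dis3-/- replicate 1 (0.41, adjusted p = 0.146), nor in DESeq2 (adjusted p = 0.1001). Rad50 passed without Dis3-/- replicate 1 (0.35, adjusted p = 0.0462). Rbbp8 (CtIP), the cofactor that activates MRE11, shares 402 exonic bases with AC090479.2 on the other strand, a gene without counts here. Rbbp8 had 235 and 209 counts in the wild type and 244 and 308 in Dis3-/- samples. Its log2 fold change of 0.41 ± 0.14 lay just inside the threshold (edgeR adjusted p = 0.0421) and the call was lost when Dis3-/- replicate 2 (adjusted p = 0.262), wild-type replicate 1 (0.1001) or wild-type replicate 2 (0.122) was left out, with the replicate number as a block (0.0561) and in DESeq2 (0.185).

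Polq encodes the polymerase of theta-mediated end joining, the error-prone route that takes over resected ends when recombination fails. It had 200 and 220 counts in wild-type libraries against 313 and 423 in Dis3-/- ones, a log2 fold change of 0.90 ± 0.15 (edgeR adjusted p = 7.40e-04). Both Dis3-/- libraries were above both wild-type libraries, as for all 23 members that rose. Of those 23, 18 passed the test without each of the 4 libraries in turn, and the 5 that did not are Rad51ap1, Fancm, Eme1, Nbn and Rbbp8.

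Transcript levels of paired genes were compared in TPM, which corrects for gene length and so allows levels of different genes to be set side by side. The 9 pairs are textbook partners or close relatives that were put together after the values were seen, and their ratios are given as a description. In wild-type libraries Rmi2 stood at 0.738 and 0.754 of the TPM of Rmi1, and in Dis3-/- libraries at 1.36 and 1.22. Blm stood at 0.462 and 0.433 of the TPM of Wrn in the wild type and 0.793 and 0.783 in Dis3-/- samples. Xrcc2 went from 0.495 and 0.662 of Rad51d to 0.948 and 1.02, and Nbn from 0.625 and 0.589 of Mre11a to 0.991 and 0.870. In each of these pairs the second gene was the more abundant one in wild-type cells, and in Dis3-/- cells the ratio was nearer to 1 or past it. The ratio of Fancd2 to Fanci went from 0.414 and 0.671 to 0.743 and 0.884, so that the nearest libraries of different genotype lay closer than the wild-type replicates did. Brca1 over Bard1 gave 1.86 and 1.34 in wild-type libraries against 1.91 and 2.08 in Dis3-/- ones, so that the groups all but touched, and Brca2 over Palb2, Eme1 over Mus81 and Xrcc3 over Rad51c overlapped.

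**Figure D3:**
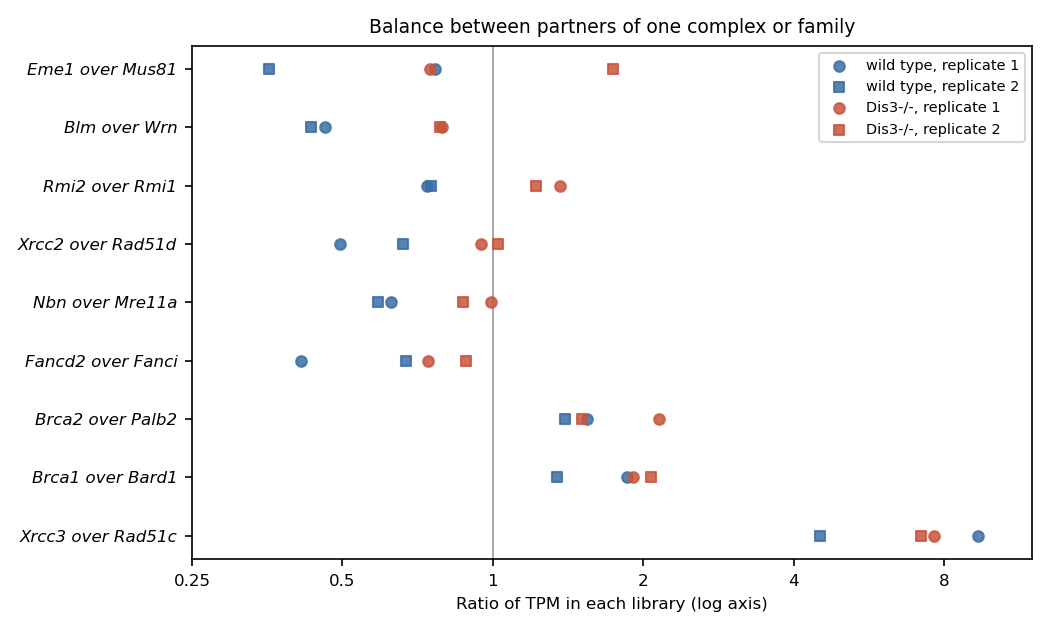
Ratio of TPM between the genes of 9 pairs in each library (log axis; blue, wild type; red, Dis3-/-; circle and square, replicates 1 and 2), with a line at equal levels. The ratios of Blm to Wrn, Rmi2 to Rmi1, Xrcc2 to Rad51d and Nbn to Mre11a are apart between genotypes by more than the replicates differ, and those of Eme1 to Mus81, Brca2 to Palb2 and Xrcc3 to Rad51c overlap.

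On the same TPM scale, levels spanned from 3.13 for Gen1 to 45.9 for Usp1 in wild-type cells. Usp1 was the most abundant member in both genotypes, at 41.98 and 49.73 TPM in the wild type and 67.97 and 60.31 TPM in Dis3-/- samples. Mre11a, Wrn, Uimc1 and Dna2 came next in wild-type cells, with Mre11a at 40.0 TPM and Dna2 at 33.8 TPM. In Dis3-/- cells the next places were taken by Dna2 (42.6 TPM), Rad54l (42.0 TPM), Fanca (37.4 TPM) and Brca1 (37.2 TPM). Their order is not resolved, since the Rad54l libraries, at 38.1 and 45.9 TPM, overlap the range of each of the other 3. Brca1 went from place 19 to place 5 and Ankle1 from place 42 (6.03 TPM) to place 10 (30.0 TPM). Places near one another in this order often differ by less than the replicates do, as with Rad52, whose Dis3-/- libraries stood at 11.7 and 22.5 TPM. TPM also centres the libraries differently: the median of all tested genes was -0.11 on log2(TPM + 1), against -0.0027 for CPM scaled by TMM. The split of all calls moved with it, from 55.5% higher in edgeR to 42.1% higher on log2(TPM + 1). The members' median there was 0.36, 16 members rose and none fell, and Bard1, Brca2, Fancm, Nbn, Rbbp8, Exo1 and Dna2 were no longer called.

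Repair genes often share a short start region with a neighbour, and 14 of the 44 had a tested coding gene that starts within 1 kb on the other strand, counted between the starts in GENCODE M21. Of these 14 members 6 rose, while of the 14 neighbours 1 rose and 1 fell. Over all tested genes 12.7% were higher and 10.2% lower, so a low count among 14 neighbours does not set them apart. The median log2 fold change was 0.47 for the members and 0.0099 for the neighbours, and the member's estimate was the larger in 12 of 14 pairs. Brca1 and Nbr1, a receptor of selective autophagy, start 194 bases apart, across the sequence shown above. Nbr1 had 901 and 862 counts in wild-type libraries against 592 and 700 in Dis3-/- ones, and fell by 0.35 on the log2 scale (SE 0.09; edgeR adjusted p = 0.0121) while Brca1 rose. Their 95% intervals were apart, from -0.54 to -0.16 for Nbr1 and from 0.77 to 1.23 for Brca1, although the difference within a pair was not tested. Fancd2 and Emc3, a subunit of the membrane insertion complex of the endoplasmic reticulum, start 30 bases apart. Emc3 stood at 70.9 ± 0.61 CPM in the wild type and 70.6 ± 2.08 CPM in Dis3-/- samples, with a 95% interval of its log2 fold change from -0.22 to 0.21. Rad54l and Pomgnt1, a glycosyltransferase gene, start 150 bases apart, and Pomgnt1 had an estimate of 0.31 ± 0.13 (edgeR adjusted p = 0.110).

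Gen1 was the only one of the 14 whose neighbour also rose. Smc6, a subunit of a chromosome-structure complex with its own part in recombination, starts 85 bases from Gen1 and had 430 and 408 counts in wild-type libraries against 567 and 561 in Dis3-/- ones (0.53 ± 0.10; edgeR adjusted p = 0.00212). Rad51ap1 and D6Wsu163e start 375 bases apart, and Eme1 and Mrpl27 197 bases apart; neither neighbour passed the test, with estimates of -0.09 ± 0.21 and 0.09 ± 0.18. In the remaining 8 pairs neither gene passed it: Palb2 with Dctn5, Xrcc3 with Zfyve21, Fancb with Mospd2, Fancf with Gas2, Helq with Mrps18c, Mre11a with Ankrd49, Rad51b with Zfyve26 and Wrn with Purg. Mre11a lay below its neighbour, as Ankrd49 had an estimate of 0.46 ± 0.18 (edgeR adjusted p = 0.0787). Eme1, Fancf and Mre11a share exonic bases with the neighbour named, so part of their reads cannot be assigned without strand. Brip1 starts 177 bases from the noncoding RNA Brip1os, across the stretch with 3 CCAAT matches. Brip1os had 465 and 460 counts in the wild type and 518 and 581 in Dis3-/- samples and rose by 0.35 ± 0.10 on the log2 scale (edgeR adjusted p = 0.0224), less than Brip1. Over all 44 members, 24 share no annotated exonic base with another gene, and 13 of these rose; of the 20 that share some, 10 rose.

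**Figure D4:**
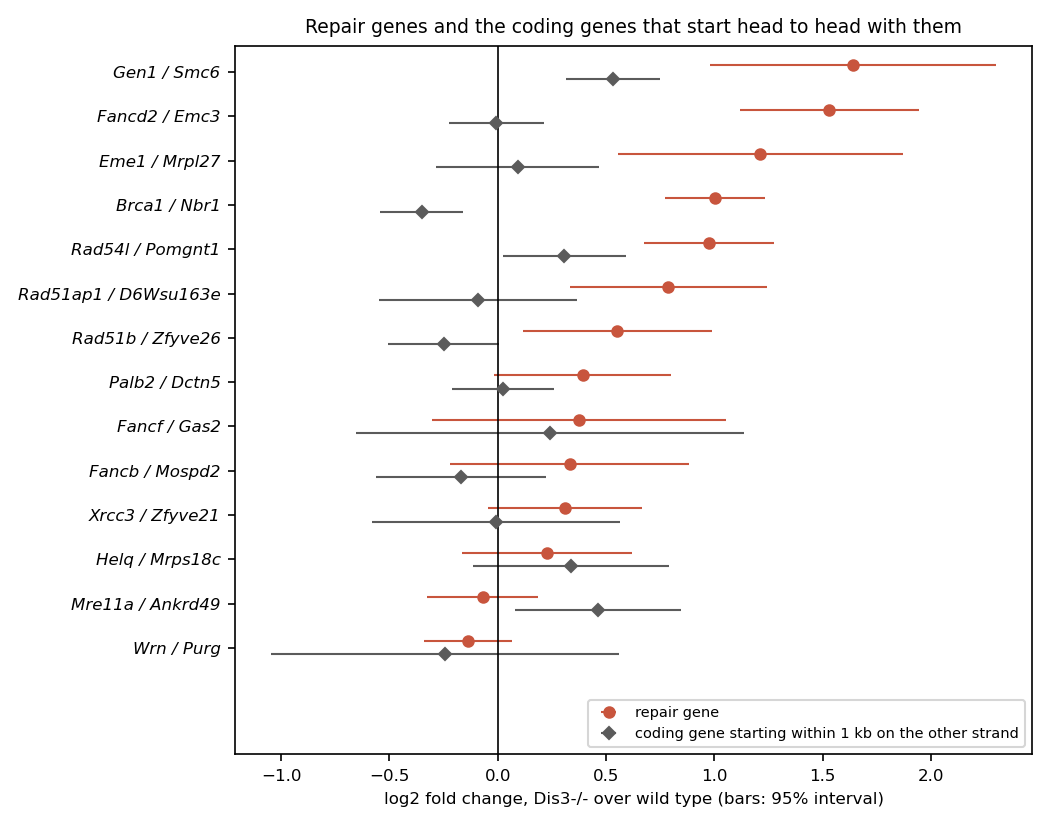
log2 fold change (Dis3-/- over wild type) of 14 repair genes and of the coding gene that starts within 1 kb of each on the other strand, with 95% intervals; red circles are repair genes and grey diamonds are neighbours. The repair gene lies to the right of its neighbour in 12 of 14 pairs, Helq and Mre11a being the others.

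Promoter windows from 250 bases before to 50 after the RefSeq start were available for 33 of the 44 members, 37 windows in all. They were searched on both strands for 4 spellings of the E2F site (TTTCCCGC, TTTGGCGC, TTTCGCGC and TTTGCCGC), for TTTGAA, the core letters of the CHR element of cell cycle genes, and for CCAAT, the site of the factor NF-Y; a base could count for more than 1 motif. An E2F spelling was found in 6 of 37 windows (16.2%), against 2.26% of all 32851 windows and 4.06% of those of tested genes. TTTGAA was found in 6 of 37 windows (16.2%), against 17.9% of all windows and 12.3% of those of tested genes. CCAAT was found in 21 of 37 (56.8%), against 37.4% and 38.1%. Windows are not separate genes: Rad51c counts more than once for E2F, and Rad51b, Rad54l and Rmi1 more than once for CCAAT. Both for Rad51b and for Rad54l, the CCAAT site counted again is the same site. Among members that rose, E2F spellings were in 2 of 16 windows, TTTGAA in 4 and CCAAT in 8. Among members that did not pass the test they were in 4, 2 and 13 of 21 windows. Bard1 and Brca2 were the members that rose with an E2F spelling in the window, and Fancg, Rad51c and Rmi1 those with such a spelling that did not pass the test. A match is a description of letters and shows no binding.

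Other genes of these pathways rose too, Rfwd3 and Mcm8 among them. From a list of 44 further pathway genes, 43 were in the tables (Hrob was not matched), 42 were tested (Dmc1 was not) and 15 rose (35.7% of those tested; the difference from the members' share was not tested). None fell in edgeR, where 1, Zswim7, was lower at an unadjusted p under 0.05; none fell in DESeq2 or limma-voom either. Their median log2 fold change was 0.38. Rfwd3, a ubiquitin ligase that acts on the single-strand binding protein RPA, had 778 and 726 counts in the wild type and 1080 and 1212 in Dis3-/- samples (0.71 ± 0.08; edgeR adjusted p = 6.28e-05). Fignl1 (0.86 ± 0.12) and Parpbp (1.35 ± 0.24), regulators of strand exchange, rose as well, along with the helicase genes Mcm8 (1.22 ± 0.18) and Recql (0.90 ± 0.15). Other regulators of strand exchange on the list did not pass, with estimates of 0.23 ± 0.12 for Rtel1, 0.04 ± 0.14 for Recql5 and -0.03 ± 0.11 for Fbxo18 (edgeR adjusted p = 0.171, 0.882 and 0.876). Rpa2, a subunit of the single-strand binding protein, rose by 0.65 ± 0.10, and Rif1, which restrains resection, by 0.40 ± 0.08. Zswim7, a partner of SWSAP1 in recombination, had 64 and 49 counts in wild-type libraries against 34 and 28 in Dis3-/- ones (-0.75 ± 0.32; edgeR adjusted p = 0.108).

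Genes of the cell cycle moved with the members. Of 20 S phase genes 18 rose, with a median log2 fold change of 0.64, and of 20 G2 and M phase genes all 20 rose, with a median of 1.63. The summed level of the 44 members was 1295 and 1318 CPM in the wild type and 1827 and 1877 CPM in Dis3-/- samples, a fold of 1.42. That of the S phase genes was 2713 and 2677 CPM in wild-type libraries against 4371 and 4022 CPM in Dis3-/- ones, a fold of 1.56. The G2 and M phase genes summed to 898 and 1059 CPM in the wild type and 2361 and 2540 CPM in Dis3-/- samples, a fold of 2.50. Per unit of S phase transcripts the members stood at 0.477 and 0.492 in wild-type libraries against 0.418 and 0.467 in Dis3-/- ones, and per unit of G2 and M phase transcripts at 1.44 and 1.25 against 0.774 and 0.739. The part that cell cycle stage has in the members' changes was not tested. Ankle1, at 2.42, exceeded the median of either reference list, whereas most members that rose had estimates below the G2 and M phase median. Gen1 (1.64 ± 0.31) was level with that median, and its 95% interval from 0.98 to 2.30 includes it. The intervals of Fancd2 and Eme1 include it too.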

How the data were processed

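RNA-seq libraries of 100 sorted stem cells came from RamDA-seq, which copies total RNA along its full length, and Nextera XT, per the labels' protocols. RSEM 1.3.3, STAR 2.7.8a, Trim Galore 0.6.6 and mm10 stand in the submitters' processing notes; the tasks of these tools, the annotation and the use of strand were not given in the sources used here. The authors deposited 1 table of expected counts (estimates of reads by gene, without normalization) and 1 of TPM (scaled for gene length to 1000000 per library). Expected counts split reads between similar genes by estimate; 35 of the 44 members had whole numbers in every library, the others being Xrcc2, Rad54l, Rad54b, Fanca, Fancc, Fancl, Fanci, Eme1 and Rmi1.

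After rounding, expected counts went into edgeR 4.0.16 (R 4.3.3): filterByExpr (minimum count 10, minimum total 15), TMM scaling, glmQLFit and a 2-sided glmQLFTest on all 4 libraries with genotype as the only term, and Benjamini-Hochberg adjustment over the 12244 tested genes at 0.05. Each standard error is the size of the log2 change divided by the root of its F statistic. A floor of 3 counts is 0.432 to 0.504 CPM here and covers counting error only. The procedure was also run on simulated counts. Their spread was the one estimated from these 4 libraries, so that run does not test the estimate of spread itself. Alternatives were DESeq2 1.42.0, limma-voom and limma on TPM (limma 3.58.1), other scalings and filters, a replicate block and leaving out each library. No pair of libraries agreed within counting noise (chi-square per degree of freedom 3.19 and 3.64). Members and lists were chosen with earlier results of these data known. Every member is named; counts are given for the 16 with the smallest p and for those whose call rests on 1 library, other members by CPM or fold change; of other pathway genes, the 8 with the smallest p are named except 1 that is not reported here, Zswim7, Rtel1, Recql5, Fbxo18 and the marker genes Cd79a, Cd79b and Nkg7 having been added after their values were seen. Gene spans, strands and exon overlap come from GENCODE M21 (GRCm38, the mm10 assembly); promoter sequences are RefSeq's on GRCm38.p6.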

Additional observations from a re-analysis of the deposited data

How the results depend on the processing

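Of the 44 members, 23 were called higher with RLE scaling, limma-voom and robust empirical Bayes, 24 without the filter on low counts, 20 with DESeq2 (without Rad51ap1, Nbn and Rbbp8), 22 with the replicate block and 19 to 24 without 1 library; none was called lower under any of the 13 alternatives, and no called member changed sign. Brca1, Rad54l, Rad54b and Ankle1 were called under all 13. Fewer members were higher on log2(TPM + 1) (16), on log2(TPM + 0.1) (15) and on log2(TPM + 1) without a filter (4); the cause was not tested. Over the whole table DESeq2 called 1000 genes higher and 742 lower, log2(TPM + 1) without a filter 479 and 471, and the replicate block 1463 and 1151. Of the other pathway genes, 6 were higher on log2(TPM + 1) without a filter, and 1 (Zswim7) was lower on log2(TPM + 1) and 1 on log2(TPM + 0.1). The same replicate number does not pair libraries by the labels, and same-numbered libraries did not deviate together (correlation -0.027); the paired fit, with the replicate number as a block, ended the call of Rbbp8 and of no other member. Estimates that changed sign belonged to members that did not pass the test. On log2(TPM + 1), log2(TPM + 0.1) and log2(TPM + 1) without a filter, Rad51d gave 0.047, 0.048 and 0.047, Fan1 -0.0090, -0.0096 and -0.0090, and Mus81 -0.0098, -0.011 and -0.0098. Without 1 library, estimates ranged from -0.26 to 0.54 for Rad51c, from -0.69 to 0.21 for Rad52, from -0.069 to 0.32 for Slx4 and from -0.20 to 0.39 for Mus81. With 2 libraries a group, a lone library was taken to vary like the other group's. Members at a few CPM, Rad51c, Fancf, Gen1 and Eme1, have the largest standard errors.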

Other observations

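Across the 44 members the log2 fold change was larger in genes that were scarce in wild-type cells (Spearman rho -0.49 with the wild-type TPM, n = 44 genes), and it followed exonic length less (rho 0.24). Both measures in the first relation use the same wild-type libraries, and genes are not independent, so these values are a description. Ankle1, Gen1, Fancd2 and Eme1, the members with the largest changes, held places 42, 44, 40 and 41 of 44 by wild-type TPM. Rad51c, at place 43 with 3.63 TPM, had an estimate of 0.09 ± 0.41, and Fancb, at place 38 with 8.04 TPM, one of 0.33 ± 0.26, neither of which passed edgeR's quasi-likelihood test (adjusted p = 0.902 and 0.385).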
